A study of Homo sapiens with 9 samples.

Results

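The genes described here are 10 targets of the hypoxia-inducible factors (HIF) that act outside glycolysis: CA9, VEGFA, ADM, EGLN3, P4HA1, BNIP3, DDIT4, NDRG1, ANKRD37 and PPFIA4. They were selected by name with their values in these libraries known, and all 10 were found among the 22290 genes of the table by matching Ensembl identifiers to symbols. Their levels in all 9 libraries, and every difference between groups computed from those levels, are therefore a description and carry no test. The study examined how TRAP-1, a mitochondrial chaperone of the HSP90 family, affects tumour metabolism, and sequenced RNA from cells labelled IMR-32, a neuroblastoma line long kept in culture. The data comprise 3 libraries of parental cells with a wild-type genotype (PAR), 3 of TRAP-1 knockdown cells (KD) and 3 of TRAP-1 overexpressing cells (OE). The cells were grown in DMEM with fetal bovine serum in a CO2 incubator, and no label names a low-oxygen treatment. The engineered lines were made earlier, the sources used here do not say whether either is a single clone, and the parental cells are not described as carrying a control vector. Being TRAP-1 modified and being a separately kept line therefore cannot be told apart.

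HIF is a pair of proteins, an alpha subunit that oxygen controls (HIF1A or EPAS1) and a stable partner (ARNT or ARNT2). In oxygen, the EGLN prolyl hydroxylases mark the alpha subunit, VHL binds the mark and the protein is degraded. When oxygen is short the alpha subunit accumulates and the pair binds a short DNA motif near genes for blood vessel growth, acid export, mitophagy and glycolysis. Other inputs such as growth signals and metabolites can also raise HIF activity, so the level of a target is a readout of several pathways.

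Levels are rlog values, a log2 scale in which the normalized level of a gene is pulled towards its mean over all libraries, and more so when counts are low. A difference of 1 on this scale is a doubling, and differences of weakly expressed genes are understated. TRAP1 itself (ENSG00000126602, chromosome 16 of GRCh38 from 3651639 to 3717553) had rlog values of 10.67, 10.66 and 10.65 in the PAR libraries, 10.79, 10.79 and 10.83 in the libraries labelled KD and 10.67, 10.63 and 10.74 in those labelled OE. All 3 libraries labelled KD lay above all 3 PAR libraries, and limma gave a difference of 0.14 (standard error 0.025, adjusted p = 1.8e-05). For the libraries labelled OE limma gave 0.018 (standard error 0.025, adjusted p = 0.643), within the spread of the libraries. The RNA of the targeted gene thus went against the KD label and did not show the OE label. Other genes share 28.5% of the exonic bases of TRAP1, and the kit did not mark strand. Groups are named by their labels throughout, and no direction below is a direction of TRAP-1 dose.

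Libraries of the same group differed from each other by a root mean square of 0.0582 to 0.063 over all genes, and libraries of different groups by 0.137 to 0.255. Markers of adrenergic neuroblastoma had values for 7 of 10 genes, and the other 3, DBH, STMN2 and ELAVL4, were not analysed here. The most abundant of the 7 was ISL1 with a mean rlog of 9.29, while PHOX2A and TH lay under 3, where 5015 of the 22290 genes lie. MYCN, which is known to be amplified in IMR-32, lay there too, with a mean rlog of 2.52 in PAR, 2.60 in KD and 2.51 in OE. Of the same list, GATA3 and HAND2 had mean rlog values in PAR of 7.25 and 6.36. The low levels of PHOX2A, TH and MYCN go against the label, although the study's methods state that the line was authenticated, and the cells are called IMR-32 as the labels do. The summed level of the 7 adrenergic markers, in units of 2 to the power of the rlog value, was 993, 965 and 983 in PAR, 918, 896 and 897 in KD and 926, 973 and 943 in OE. All 7 mesenchymal markers had values, led by VIM at 15.89 with COL3A1 under 3, and their sum was 72177, 72168 and 72212 in PAR, 86940, 87630 and 86967 in KD and 76362, 75309 and 76845 in OE. This sum follows VIM, and it was higher in all 6 engineered libraries than in PAR. The markers did not all move with it. PRRX1 rose by 1.29 in KD and 0.69 in OE (adjusted p = 3.1e-31 and 5.0e-23 from limma). FOSL1 was called lower with -0.72 and -0.52 (adjusted p = 1.6e-28 and 9.4e-24 from limma). Of the 7 mesenchymal markers limma called 3 higher and 1 lower in KD, and 4 higher and 1 lower in OE. Of the 7 adrenergic markers it called 0 higher and 4 lower in KD, and 0 higher and 2 lower in OE. The shares of all genes called higher and lower were 26.9% and 26.9% in KD, and 16.9% and 18.0% in OE. The part of these markers in the differences described here was not tested. Of 9 epithelial markers 6 had values, led by KRT18 at 12.04 with EPCAM and ESRP1 under 3, and their sum was 5823, 5840 and 5784 in PAR, 5873, 6044 and 6117 in KD and 5321, 5277 and 5338 in OE. Of 5 blood and endothelial markers 3 had values, led by PECAM1 at 9.5 with PTPRC and CDH5 under 3, and their sum was 703, 706 and 694 in PAR, 973, 984 and 955 in KD and 557, 575 and 602 in OE. Both sums were highest in KD and lowest in OE, and PECAM1 alone carried the blood and endothelial sum. Of the 6 epithelial genes limma called 1 higher and 0 lower in KD, against 26.9% and 26.9% of all genes. In OE it called 1 higher and 2 lower, against 16.9% and 18.0%. KRT8 rose by 0.39 in KD and 0.40 in OE (adjusted p = 7.1e-12 and 1.0e-11 from limma), whereas CLDN4 was at -0.057 and -0.57 (adjusted p = 0.119 and 3.8e-16 from limma) and KRT18 at 0.037 and -0.0965 (adjusted p = 0.0817 and 5.1e-05 from limma). The part of either list in the results was not tested, and PRRX1, FOSL1, KRT8, CLDN4 and KRT18 were singled out after their values were seen. In bulk RNA, fewer cells of a type and less RNA per cell cannot be told apart.

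The start regions of the members are shown because HIF reads a short motif there in many of its targets. The members were picked as known HIF targets, so a high share with the motif is no finding, and its part in their levels was not tested. RefSeq promoters of GRCh38.p14, from 250 bases before to 50 bases after the start site, were matched for 8 members, and VEGFA and NDRG1 had no entry. Both strands were searched for ACGTG and GCGTG, and the palindrome CACGTG counts as an overlapping match on each strand. ACGTG was found in 6 of the 8 member promoters (75.0%), in 21.6% of all 27305 promoters and in 25.2% of the 13256 promoters of genes with values. GCGTG was found in 4 of the 8 (50.0%), in 36.3% of all promoters and in 47.2% of those of genes with values. Of 40 promoters of the other HIF targets described further on, 55.0% held ACGTG and 62.5% GCGTG. BNIP3 had 6 matches, DDIT4 4, PPFIA4 3, ANKRD37 3, CA9 1, ADM 1, P4HA1 1 and EGLN3 0. Only the start site listed first for each gene was searched. The stretches of EGLN3 and ANKRD37 lie inside the gene bounds given further on, so annotated starts further upstream were not searched. Capitals below mark the matches on either strand. The DDIT4 match not shown is GCGTG at position 26 after the start site. Every stretch but that of CA9 lies where GENCODE 44 annotates no exon. The short CA9 stretch, chr9:35673900-35673924 on the plus strand, lies in an exon of ARHGEF39, which is read from the opposite strand. The others are chr1:203026241-203026490 (PPFIA4, plus strand), chr10:131981968-131982173 (BNIP3, minus strand), chr10:72273705-72273918 (DDIT4, plus strand), chr4:185396591-185396810 (ANKRD37, plus strand) and chr14:33951082-33951324 (EGLN3, minus strand, the member without a match). A match is a run of letters and not a measured binding site.
CA9: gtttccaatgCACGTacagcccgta
PPFIA4: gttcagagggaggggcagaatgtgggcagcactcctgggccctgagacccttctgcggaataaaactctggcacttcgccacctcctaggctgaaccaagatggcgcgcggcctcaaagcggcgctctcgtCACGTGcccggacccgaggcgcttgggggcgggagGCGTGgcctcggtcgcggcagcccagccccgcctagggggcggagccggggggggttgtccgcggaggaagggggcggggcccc
BNIP3: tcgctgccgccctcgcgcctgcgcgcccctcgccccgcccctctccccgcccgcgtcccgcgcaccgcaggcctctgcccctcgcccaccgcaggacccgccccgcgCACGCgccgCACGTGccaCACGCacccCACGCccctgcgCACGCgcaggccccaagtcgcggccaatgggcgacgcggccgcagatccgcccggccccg
DDIT4: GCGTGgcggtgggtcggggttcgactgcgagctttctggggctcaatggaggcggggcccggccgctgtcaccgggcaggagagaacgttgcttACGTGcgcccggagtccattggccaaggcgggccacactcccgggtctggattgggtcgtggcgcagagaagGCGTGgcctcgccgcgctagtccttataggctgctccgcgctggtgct
ANKRD37: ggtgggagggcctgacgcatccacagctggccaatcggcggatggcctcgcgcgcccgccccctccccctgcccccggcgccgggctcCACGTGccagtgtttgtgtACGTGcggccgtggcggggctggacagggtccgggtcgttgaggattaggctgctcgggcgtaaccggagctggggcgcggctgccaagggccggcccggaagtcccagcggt
EGLN3: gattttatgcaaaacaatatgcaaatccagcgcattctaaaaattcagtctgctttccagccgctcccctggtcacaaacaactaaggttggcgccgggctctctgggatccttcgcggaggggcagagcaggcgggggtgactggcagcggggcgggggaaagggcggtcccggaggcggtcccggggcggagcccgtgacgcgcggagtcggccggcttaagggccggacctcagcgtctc

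The members that act at the cell surface or are secreted are CA9, VEGFA and ADM. CA9 (ENSG00000107159, chromosome 9 from 35673928 to 35681159, plus strand) encodes a carbonic anhydrase of the plasma membrane that helps cells to control acidity. CA9 had rlog values of 7.04, 6.99 and 7.06 in the PAR libraries, 8.80, 8.91 and 8.90 in those labelled KD and 8.70, 8.71 and 8.67 in those labelled OE. The 3 groups did not overlap, with PAR lowest and KD highest. The mean went from 7.03 ± 0.037 (SD, n = 3) in PAR to 8.87 ± 0.062 (SD, n = 3) in KD and 8.69 ± 0.021 (SD, n = 3) in OE. That is a difference from PAR of 1.84 in KD and 1.66 in OE, each with a standard error of 0.038. CA9 shares 35.7% of its exonic bases with ARHGEF39 on the other strand, so reads of the pair cannot be fully told apart. ARHGEF39 itself had a mean rlog of 9.83 in PAR, above that of CA9, and differed from PAR by 0.39 in KD and 0.088 in OE. The part of shared reads in the CA9 difference was not tested.

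VEGFA (ENSG00000112715, chromosome 6 from 43770184 to 43786487, plus strand) encodes the main growth factor for blood vessels. VEGFA had rlog values of 11.69, 11.65 and 11.67 in PAR, 11.84, 11.85 and 11.82 in KD and 11.80, 11.82 and 11.81 in OE. All 6 engineered libraries lay above PAR, but the steps were small, with 0.16 in KD and 0.14 in OE (standard error 0.019 each). ADM (ENSG00000148926, chromosome 11 from 10305073 to 10307397, plus strand) encodes adrenomedullin, a peptide that widens blood vessels. ADM had rlog values of 8.78, 8.86 and 8.81 in PAR, 8.82, 8.78 and 8.81 in KD and 9.22, 9.20 and 9.24 in OE. ADM separated the engineered lines, since the KD libraries lay among the PAR libraries while OE lay above both. The difference from PAR was -0.011 in KD and 0.41 in OE, each with a standard error of 0.032, and that in KD ranged from -0.029 without PAR replicate 1 to 0.011 without PAR replicate 2.

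EGLN3 and P4HA1 are both hydroxylases that need oxygen, the former for HIF control and the latter for collagen. EGLN3 (ENSG00000129521, chromosome 14 from 33924227 to 34462774, minus strand) encodes a prolyl hydroxylase that marks HIF alpha subunits and is itself a HIF target. EGLN3 had rlog values of 5.57, 5.74 and 5.65 in PAR, 5.45, 5.45 and 5.49 in KD and 5.58, 5.54 and 5.61 in OE. EGLN3 was the exception among the 10, with KD below PAR and OE overlapping it. The difference from PAR was -0.19 in KD and -0.075 in OE (standard error 0.048 each), at the lowest level of any member, where rlog shrinks differences most. The OE difference of EGLN3 moved to -0.033 without PAR replicate 2 and to -0.12 without PAR replicate 1. P4HA1 (ENSG00000122884, chromosome 10 from 73007217 to 73096974, minus strand) encodes the catalytic subunit of the prolyl hydroxylase that stabilizes collagen. P4HA1 had rlog values of 11.35, 11.41 and 11.40 in PAR, 11.91, 11.88 and 11.88 in KD and 11.87, 11.84 and 11.86 in OE. Both engineered lines lay well above PAR, by 0.50 in KD and 0.47 in OE (standard error 0.020 each).

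BNIP3, DDIT4 and NDRG1 belong to mitophagy and stress responses, and all 3 were ordered PAR, KD, OE from low to high with no overlap. BNIP3 (ENSG00000176171, chromosome 10 from 131967684 to 131981967, minus strand) encodes a receptor that targets mitochondria for removal by autophagy. BNIP3 had rlog values of 12.11, 12.12 and 12.13 in PAR, 12.68, 12.67 and 12.69 in KD and 12.96, 12.95 and 12.95 in OE. The SD within a group was at most 0.011 (n = 3), against differences from PAR of 0.56 in KD and 0.83 in OE (standard error 0.015 each). The annotation lists 44 pseudogenes of BNIP3 and 1 of EGLN3, and reads from such copies could be counted for either gene. DDIT4 (ENSG00000168209, chromosome 10 from 72273919 to 72276036, plus strand) encodes an inhibitor of mTOR signalling that stress induces. DDIT4 had rlog values of 12.04, 12.00 and 12.09 in PAR, 12.16, 12.16 and 12.21 in KD and 12.32, 12.36 and 12.40 in OE. The gain over PAR was 0.13 in KD and 0.32 in OE (standard error 0.022 each).

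NDRG1 (ENSG00000104419, chromosome 8 from 133237175 to 133302022, minus strand) encodes a stress-responsive protein that myelinating cells also need. NDRG1 had rlog values of 12.19, 12.16 and 12.20 in PAR, 12.59, 12.60 and 12.63 in KD and 12.97, 12.96 and 13.01 in OE. The difference from PAR was 0.43 in KD and 0.80 in OE, each with a standard error of 0.017. NDRG1 stood apart in its surroundings, because the 38 expressed genes within 10 Mb had a median difference of -0.28 in KD and -0.050 in OE. With that median subtracted in each library, the difference of NDRG1 was 0.70 in KD and 0.85 in OE, and the gap between the engineered lines shrank from 0.37 to 0.15.

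ANKRD37 and PPFIA4 are less characterised targets. ANKRD37 (ENSG00000186352, chromosome 4 from 185396021 to 185400628, plus strand) encodes a small ankyrin repeat protein. ANKRD37 had rlog values of 7.92, 7.91 and 8.0 in PAR, 8.11, 8.15 and 8.26 in KD and 7.99, 8.10 and 8.15 in OE. KD lay above PAR, whereas OE overlapped both PAR and KD. The difference from PAR was 0.23 in KD and 0.13 in OE (standard error 0.044 each), and the SDs of 0.080 and 0.084 (n = 3) in the engineered lines were the widest of the members in those groups. UFSP2, which shares 40.3% of the exonic bases of ANKRD37 on the opposite strand, differed from PAR by 0.085 in KD and 0.12 in OE. PPFIA4 (ENSG00000143847, chromosome 1 from 203026491 to 203078740, plus strand) encodes liprin-alpha-4, a scaffold protein of the presynaptic zone. PPFIA4 had rlog values of 9.80, 9.79 and 9.76 in PAR, 10.75, 10.74 and 10.74 in KD and 11.05, 11.07 and 11.07 in OE. The 3 groups were far apart for their spread, with a difference from PAR of 0.96 in KD and 1.28 in OE (standard error 0.023 each).

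**Figure D1:**
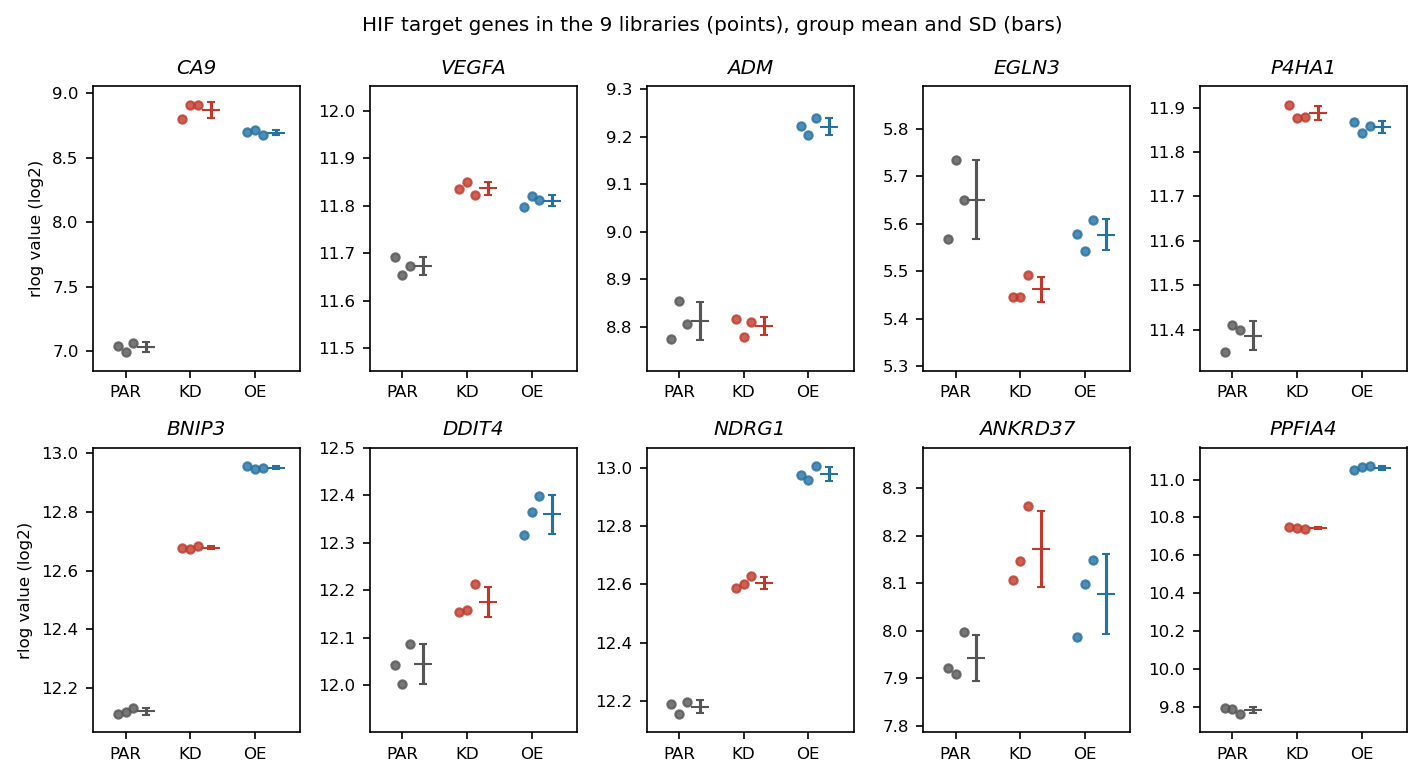
The rlog value (log2) of each of the 10 members in each library is plotted by group (PAR, KD, OE), 1 point per library with the group mean and SD beside the points. CA9 and PPFIA4 show the widest steps from PAR, ADM is higher in OE but not in KD, and EGLN3 is lowest in KD.

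Counted over libraries, 8 of the 10 members had all 3 libraries labelled KD above all 3 PAR libraries, against 29.6% of all genes, and 1, EGLN3, had them below, against 29.6%. In OE against PAR 8 members lay above, against 21.2% of all genes, and 0 lay below, against 22.0%. Because the members were chosen with these values known, nothing is read from either share. Levels of different genes can be compared only per length, and on a log2 level per kilobase of exonic sequence DDIT4 was highest at 11.11, followed by BNIP3 at 10.57 and P4HA1 at 10.08. NDRG1 (9.0), VEGFA (7.92), ADM (7.73), CA9 (7.52), PPFIA4 (7.25) and ANKRD37 (6.89) lay between these and EGLN3 at 2.68. The length takes in every annotated exon of a gene, so a gene with long exons that are little used is placed too low. These values therefore give no firm order of abundance. On this measure CA9 and PPFIA4, the genes with the widest differences, were not the highest members.

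The order of the differences was compared between the engineered lines, which share the PAR libraries as controls, so the orders are set side by side and not correlated. In the libraries labelled KD the order from high to low was CA9, PPFIA4, BNIP3, P4HA1, NDRG1, ANKRD37, VEGFA, DDIT4, ADM and EGLN3. In those labelled OE it was CA9, PPFIA4, BNIP3, NDRG1, P4HA1, ADM, DDIT4, VEGFA, ANKRD37 and EGLN3. The places of CA9, PPFIA4 and BNIP3 at the top and of EGLN3 at the end were shared. In these orders by difference ADM and ANKRD37 moved furthest, ADM from place 9 in KD to place 6 in OE and ANKRD37 from place 6 to place 9. NDRG1 and P4HA1 exchanged places 4 and 5. Ranked among the 1000 genes nearest to each in mean level, ANKRD37 stood in place 8 in KD and 9 in OE. On that scale ADM stood in places 9 and 7, and BNIP3 in 3 and 1.

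Some neighbours in these orders were close. The standard error of a gap combines those of both genes as if they were independent, although both were measured in the same libraries. In KD, BNIP3 and P4HA1 were 0.057 apart (standard error of the gap 0.025), ANKRD37 and VEGFA 0.066 apart (0.048), and VEGFA and DDIT4 0.032 apart (0.029). In OE, VEGFA and ANKRD37 were 0.0021 apart with a standard error of 0.048, so their places 8 and 9 were not separated. P4HA1 and ADM, in places 5 and 6 in OE, were 0.061 apart (0.038). BNIP3 and NDRG1 were 0.032 apart there (0.023), and with the median of the neighbouring genes subtracted NDRG1 stood in place 3 and BNIP3 in place 4 of both orders. The exchange of NDRG1 and P4HA1 between KD and OE was then absent, with P4HA1 in place 5 of both.

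**Figure D2:**
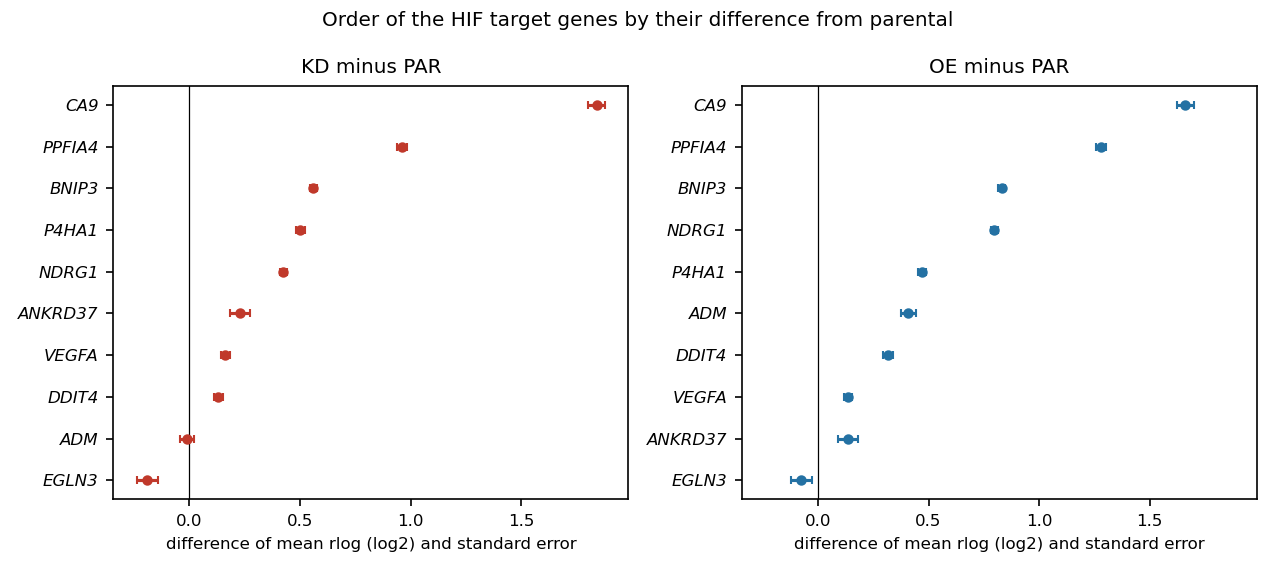
Differences of the mean rlog value (log2) from PAR, with standard errors, are plotted for the 10 members in the libraries labelled KD and OE, ordered by size. CA9 (1.84 and 1.66) and PPFIA4 (0.96 and 1.28) lead both orders, and ADM (-0.011 and 0.41) stands in place 9 in KD and place 6 in OE.

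The place of each member among all genes depended on the line as well as on its own difference. By difference from PAR, CA9 ranked 16 of 22290 genes in KD and 2 in OE, although its difference was smaller in OE. PPFIA4 ranked 131 in KD and 4 in OE, and BNIP3 ranked 486 and 26. NDRG1 ranked 841 and 29, and P4HA1 ranked 602 and 143. Differences from PAR were spread more widely in KD, where more genes lay far from 0, than in OE. Since rlog shrinks weak genes, each member was also ranked beside the 1000 genes nearest to it in mean level. In OE no such gene exceeded CA9, PPFIA4 or BNIP3 in difference, so each had rank 1. In KD PPFIA4 had rank 3, CA9 rank 4 and BNIP3 rank 13 among genes of like level. ADM had rank 528 in KD and 24 in OE on that scale, and EGLN3 had 843 and 805, below the middle in both.

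**Figure D3:**
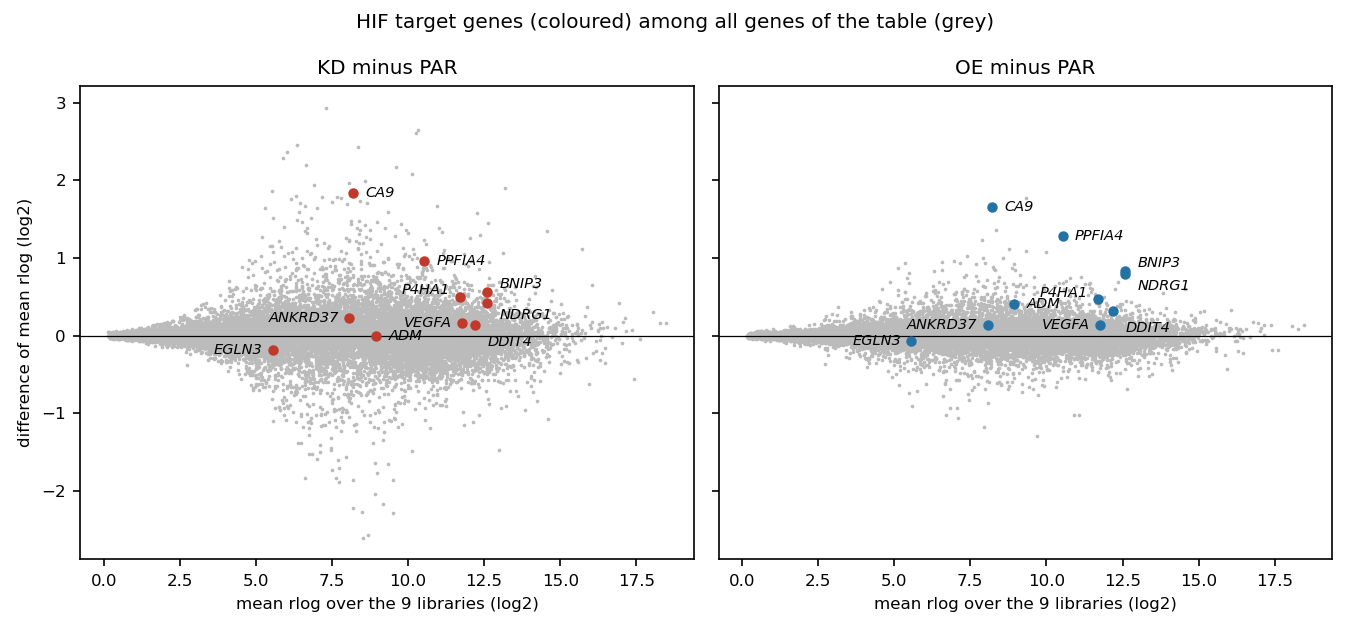
The difference of the mean rlog value from PAR (log2) is plotted against the mean rlog value over 9 libraries for all 22290 genes in grey and the 10 members in colour, for KD on the left and OE on the right. CA9 ranks 16 in KD and 2 in OE, in a narrower cloud of genes.

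Between the engineered lines themselves, where PAR levels do not enter the difference, the members differed in both directions. All 3 libraries labelled OE lay above all 3 labelled KD for 6 members, against 27.6% of all genes, and below for 3, against 26.5%, and nothing is read from these shares since the members were chosen on the same values. Above were ADM by 0.42, NDRG1 by 0.37, PPFIA4 by 0.32, BNIP3 by 0.27, DDIT4 by 0.18 and EGLN3 by 0.12. Below was CA9 with -0.18 (standard error 0.038), and with -0.026 (0.019) and -0.0315 (0.020) VEGFA and P4HA1 were below by less than double their standard errors. The median of the genes within 10 Mb of CA9 was -0.12 in the same comparison, and with it subtracted CA9 differed by -0.063. ANKRD37 differed by -0.094 with libraries that overlapped, and by -0.050 and -0.048 without KD replicate 3 or OE replicate 1. The mitophagy and stress members BNIP3, DDIT4 and NDRG1 were thus all higher in OE than in KD, and the cell surface and secreted members were not of 1 direction.

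For each member, the gene outside the lists whose 9 values followed it most closely was identified as a description. Such r values rest on 3 groups of 3 libraries, so any gene with a like order of group means scores high. PPFIA4 was followed by OLFML3 (r = 0.9992, n = 9 libraries), BNIP3 by GLRA2 (r = 0.9985, n = 9) and NDRG1 by BGN (r = 0.9974, n = 9). P4HA1 was followed by NUCKS1 (r = 0.9969, n = 9), CA9 by the noncoding TPT1-AS1 (r = 0.9959, n = 9) and VEGFA by ZMYND8 (r = 0.995, n = 9). ADM was followed by S100B (r = 0.9932, n = 9), DDIT4 by EEF1A2 (r = 0.9839, n = 9), ANKRD37 by PLEKHH3 (r = 0.9835, n = 9) and EGLN3 by ZWINT (r = 0.9683, n = 9). The mean of the members, each centred and scaled to an SD of 1, was -1.06, -0.92 and -0.86 in PAR, 0.12, 0.16 and 0.33 in KD and 0.63, 0.73 and 0.88 in OE. SDC3, ATOH8, B4GALT5, PDE4B and ADAMTS16 followed that mean most closely, with r from 0.9881 to 0.9898 over 9 libraries.

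Other HIF targets outside glycolysis place the members in their pathway. Of 56 listed genes 52 had values, and CXCR4, CITED2, HILPDA and PPP1R3C were not analysed here. In the libraries labelled KD limma called 31 of the 52 higher than PAR (59.6%, against 26.9% of all genes) and 11 lower (21.2%, against 26.9%), with a median difference of 0.18 against -0.00051 for all genes. In those labelled OE 36 were higher (69.2%, against 16.9% of all genes) and 6 lower (11.5%, against 18.0%), with a median of 0.26 against 0.00039. Weakly expressed genes were called less often. Among the 14000 genes whose mean rlog reached 5, the shares called higher and lower were 35.6% and 36.2% in KD. In OE they were 24.0% and 26.3%. Of the 52 genes, 30 were called higher in both lines, 6 lower in both and 8 in neither, and both comparisons use the same PAR libraries. Between OE and KD directly, 28 were called higher in OE (53.8%, against 23.5% of all genes) and 8 lower (15.4%, against 23.8%), with a median of 0.087 against 0.00078. Among the genes whose mean rlog reached 5, 31.5% were higher and 32.6% lower in OE than in KD. The list was compiled with earlier results of these libraries known, so these shares are no independent evidence of its direction.

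By role, counts are small and are read against 26.9% higher and 26.9% lower of all genes in KD and 16.9% and 18.0% in OE. Of 13 vascular and secreted factors, 5 were called higher and 4 lower in KD, and 6 higher and 4 lower in OE. Of 4 genes for pH and iron, 1 was higher and 1 lower in each line. Of 4 genes for oxygen sensing and histone demethylation, 3 were higher and 0 lower in each line. Collagen and matrix enzymes had 3 higher and 1 lower of 6 in KD, and 5 and 0 in OE. Mitophagy, apoptosis and cell cycle genes had 4 higher of 4 in each line. Lipid, glycogen and nucleotide metabolism had 4 higher and 2 lower of 6 in KD, and 6 and 0 in OE. Transcription factors had 5 higher and 1 lower of 7 in KD, and 4 and 1 in OE, and the remaining 8 targets had 6 and 2 in KD and 7 and 0 in OE.

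Of the single genes, CCNG2, a cyclin linked to cell cycle arrest, rose by 1.36 in KD and 0.58 in OE (adjusted p = 9.9e-28 and 3.5e-17 from limma), and the genes within 10 Mb of it had a median of 0.46 in KD. NRN1, a protein of neurite growth, rose by 1.02 and 1.12 (adjusted p = 3.7e-22 and 3.3e-22 from limma). MIR210HG, the host transcript of a microRNA that hypoxia induces, rose by 0.98 and 1.03 (adjusted p = 5.7e-19 and 9.8e-19 from limma). TF, which encodes the iron carrier transferrin, rose by 0.78 and 0.71 (adjusted p = 8.6e-17 and 5.0e-15 from limma). Its receptor TFRC moved the other way in both lines, with -0.72 in KD and -0.35 in OE (adjusted p = 4.8e-29 and 6.3e-20 from limma), while the genes around it had a median of 0.37 in KD. SPAG4 rose by 0.69 and 0.77 (adjusted p = 6.7e-16 and 3.2e-16 from limma), while the genes around it had a median of -0.27 in KD and -0.11 in OE.

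TMEM45A, a membrane protein, and STC1, a secreted hormone, rose further in the libraries labelled OE than in those labelled KD. TMEM45A rose by 0.44 in KD and 1.0 in OE, with 0.56 between the lines (adjusted p = 1.4e-13 from limma). STC1 rose by 0.38 in KD and 0.85 in OE, with 0.47 between them (adjusted p = 5.0e-12 from limma). ANGPTL4, a secreted inhibitor of lipoprotein lipase, was 0.54 higher in OE than in PAR and 0.49 higher than in KD (adjusted p = 1.3e-19 and 3.1e-19 from limma). In KD it differed from PAR by 0.046 (adjusted p = 0.0632 from limma), and by limma it was called without KD replicate 2 (0.063, adjusted p = 0.0236), with the neighbouring genes subtracted (adjusted p = 0.00782) and when the table was limited to genes whose mean rlog reached 5 (adjusted p = 0.0362). A fit with the replicate number as a block also called ANGPTL4 in KD (adjusted p = 0.0461 from limma). IGFBP3, which binds insulin-like growth factors, rose by 0.69 in KD and 0.17 in OE, and OE was lower than KD with -0.52 (adjusted p = 1.8e-23 from limma). 

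LOXL2, PLIN2, AK4 and RAB20 were called lower in KD and higher in OE against the same PAR libraries. RAB20, a small GTPase of membrane traffic, was at -0.37 in KD and 0.32 in OE (adjusted p = 4.3e-12 and 3.5e-10 from limma). PLIN2, a coat protein of lipid droplets, was at -0.46 and 0.12 (adjusted p = 4.1e-26 and 1.1e-10 from limma). The genes within 10 Mb of PLIN2 had a median of 0.19 in KD and 0.047 in OE. LOXL2, a lysyl oxidase of the matrix, was at -0.11 and 0.21 (adjusted p = 2.0e-06 and 1.2e-11 from limma). AK4, an adenylate kinase of mitochondria, was at -0.055 and 0.22 (adjusted p = 0.0197 and 1.5e-10 from limma). The genes within 10 Mb of AK4 had a median of 0.032 in KD and 0.034 in OE. The KD call of AK4 was lost without KD replicate 3, PAR replicate 1 or PAR replicate 2 (adjusted p = 0.0627, 0.0533 and 0.135 from limma).

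**Figure D4:**
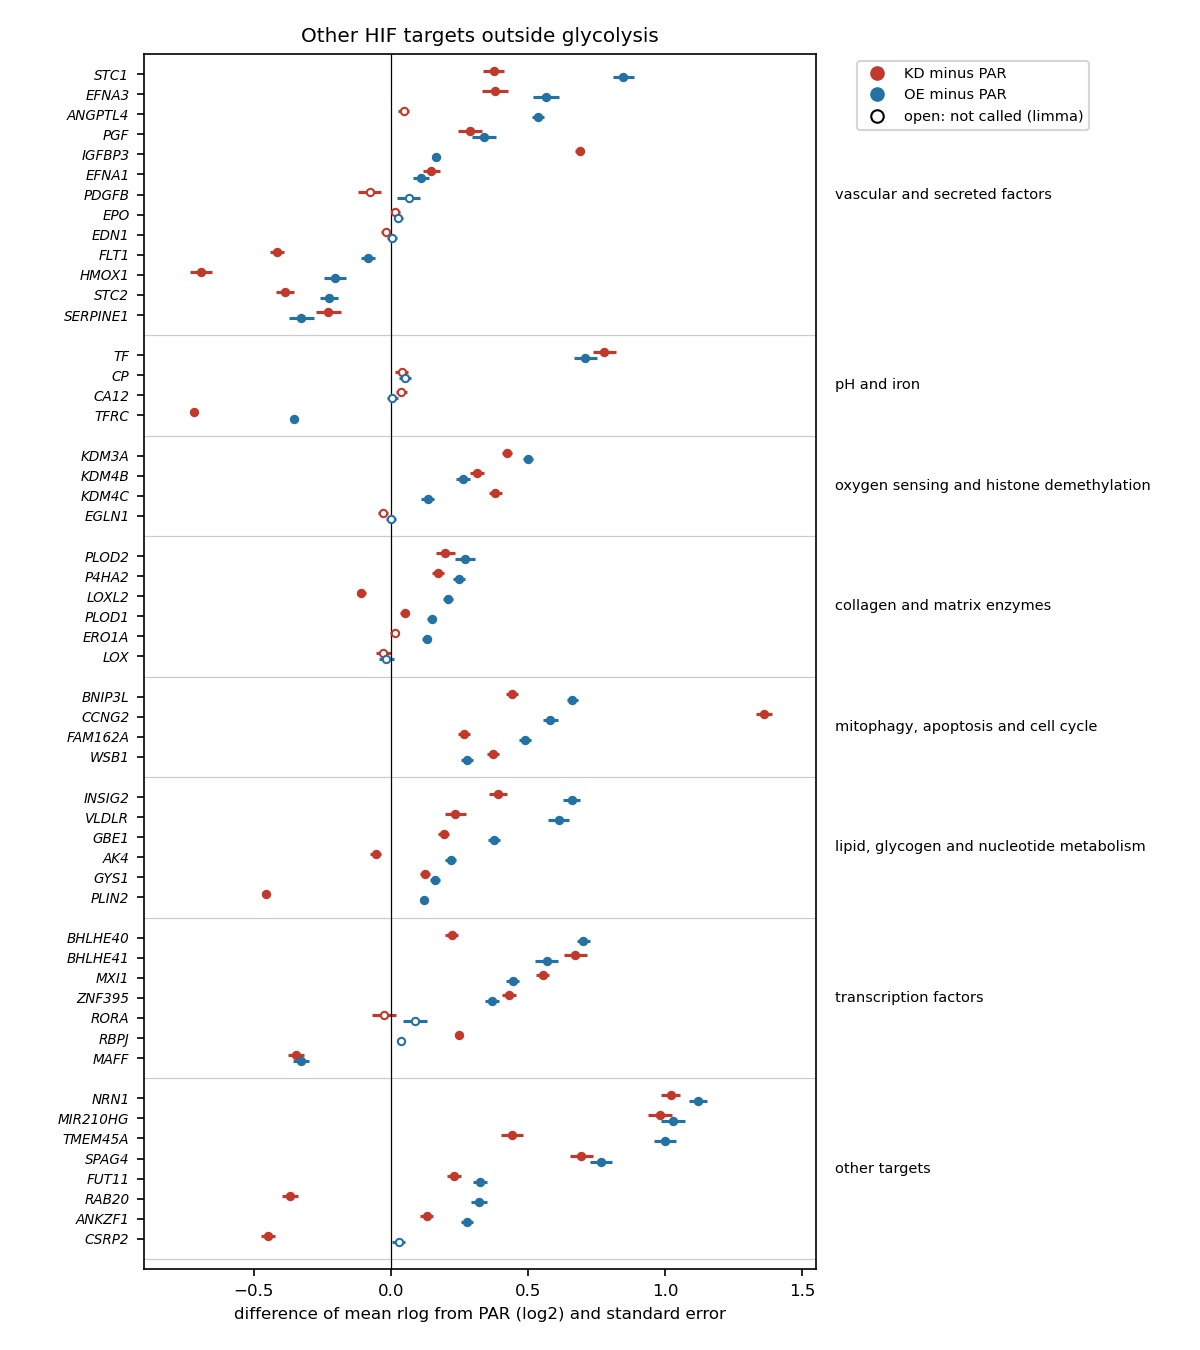
Differences of the mean rlog value from PAR (log2), with standard errors, are plotted for the 52 other HIF targets by role, with filled points for genes called by limma and open points for those not called. Points to the right of 0 are higher than PAR, as 31 genes called in KD and 36 called in OE are.

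The genes of the HIF machinery were counted in the same way. Of 13 listed genes 11 had values, with HIF3A and EGLN2 not analysed here, and limma called 3 higher and 4 lower in KD, 3 and 3 in OE, and 3 and 3 between OE and KD. That is 27.3% higher and 36.4% lower in KD, against 26.9% and 26.9% of all genes, and 27.3% in each direction in OE, against 16.9% and 18.0%. Between OE and KD it was 27.3% in each direction, against 23.5% and 23.8%, and of the 3 higher VHL lost its call with the neighbouring genes subtracted (0.048, adjusted p = 0.169 from limma). HIF1A had mean rlog values of 7.57 ± 0.13 in PAR, 7.43 ± 0.052 in KD and 7.44 ± 0.097 in OE (SD, n = 3), with groups that overlapped. Its difference of -0.14 in KD (adjusted p = 0.0287 from limma) was no longer called without KD replicate 1, PAR replicate 1 or PAR replicate 3 (-0.11, -0.072 and -0.14, adjusted p = 0.132, 0.288 and 0.0648 from limma) or, at the same size, without a variance trend (0.113). In OE the difference of -0.13 (adjusted p = 0.0616 from limma) was called without OE replicate 3 or PAR replicate 2 (-0.17 and -0.19, adjusted p = 0.0205 and 0.00506 from limma). It was also called with the neighbouring genes subtracted and with the replicate number as a block (adjusted p = 0.0354 and 0.0404 from limma). Without PAR replicate 1 it was -0.062. EPAS1, the other alpha subunit, rose by 0.31 in OE (adjusted p = 1.9e-06 from limma) and differed by -0.013 in KD (adjusted p = 0.842 from limma). That KD difference ranged from -0.035 without KD replicate 2 to 0.0062 without KD replicate 1.

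The partner ARNT2 had the widest difference of the machinery in KD, while EPAS1 had it in OE, and ARNT2 was singled out after its values were seen. ARNT2 went from a mean rlog of 12.06 in PAR to 13.51 in KD and 12.32 in OE, a rise of 1.45 and 0.26 (adjusted p = 2.6e-35 and 5.8e-15 from limma). ARNT rose by 0.21 in KD (adjusted p = 5.6e-10 from limma). In OE ARNT differed by 0.065 (adjusted p = 0.0199 from limma), a call lost without OE replicate 1 or 2 or PAR replicate 2 or 3 (adjusted p = 0.0661, 0.0789, 0.0588 and 0.0865 from limma). HIF1AN, which hydroxylates an asparagine of HIF alpha subunits, rose by 0.10 in KD (adjusted p = 4.9e-06 from limma). In OE it differed by -0.054 (adjusted p = 0.0127 from limma), a call lost without OE replicate 3 or PAR replicate 2 (adjusted p = 0.0522 and 0.0708 from limma). VHL was lower in KD, with -0.34 (adjusted p = 6.4e-12 from limma), but the genes within 10 Mb had a median of -0.33, and with that subtracted VHL differed by -0.018 (adjusted p = 0.615 from limma). EGLN1 lay near the floor of the table, with a mean rlog of 1.22 in PAR, 1.19 in KD and 1.22 in OE, and shares 55.8% of its exonic bases with other genes.

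Lists from outside the set were counted for comparison. The glycolytic HIF targets had values for 19 of 20 genes, with ALDOC not analysed here. Of these limma called 12 higher and 4 lower in KD, 15 higher and 1 lower in OE, and 10 higher and 5 lower in OE against KD, with medians of 0.093, 0.15 and 0.057. The higher share was 63.2% in KD and 78.9% in OE, against 26.9% and 16.9% of all genes. The lower share was 21.1% in KD and 5.26% in OE, against 26.9% and 18.0%. Between OE and KD 52.6% were higher and 26.3% lower, against 23.5% and 23.8% of all genes. Targets of the ATF4 stress response had 2 higher and 7 lower of 11 in KD, 1 higher and 7 lower in OE, and 5 higher and 2 lower in OE against KD, and ASNS was not analysed here. Their medians were -0.14, -0.046 and 0.023, and 63.6% were lower in each line, against 26.9% of all genes in KD and 18.0% in OE. The higher share of these targets was 18.2% in KD and 9.09% in OE, against 26.9% and 16.9%. Between OE and KD 45.5% of them were higher and 18.2% lower, against 23.5% and 23.8%. Nothing particular to a list is read from these counts. Of 4 MYC family genes 1 was higher and 3 lower in KD, 0 higher and 2 lower in OE, and 3 higher and 1 lower in OE against KD, beside 26.9% and 26.9%, 16.9% and 18.0%, and 23.5% and 23.8% of all genes. MYC, which shares part of its target genes with HIF, was lower by limma in both lines, with -0.41 in KD and -0.14 in OE (adjusted p = 7.6e-12 and 0.00221), and the genes around it had a median of -0.25 in KD. With its neighbours subtracted the limma call of MYC between OE and KD was lost (adjusted p = 0.271). The KD call of MYCN (0.081, adjusted p = 0.0129 from limma) was lost without PAR replicate 2 (adjusted p = 0.123 from limma) and with the neighbouring genes subtracted (0.0707).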

How the data were processed

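Total RNA of PAR, KD and OE cells was made into TruSeq RNA v2 libraries, which do not mark strand, and sequenced on a NovaSeq instrument. According to the study's methods and the submitters' processing notes, the authors trimmed reads with cutadapt, aligned them to GRCh38 with HISAT2, counted genes with featureCounts of Subread and removed genes with low total counts. The annotation release is not given in the sources used here. The values used are the log2 scale rlog values deposited by the authors, an output of DESeq2, so counts and the depth of each library cannot be read from them (the study's methods state a nominal depth), and 3 header columns hold no values. Symbols and positions were matched for 22195 of 22290 identifiers (GENCODE 44).

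Differences were fitted with limma 3.58.1 in R 4.3.3 on all 9 libraries, 1 mean per group, with a variance trend and Benjamini-Hochberg adjustment over 22290 genes, and called at an adjusted p under 0.05. Nothing says that replicates were separate cultures, so p-values measure only the spread between these libraries, which may be technical. Tables and plots used Python 3.11.15, pandas 2.3.3, numpy 2.4.6 and matplotlib 3.10.9. Members and lists were chosen with earlier results of these data known, and some listed markers are not reported here. Named besides the members were the 6 other HIF targets with the largest absolute difference among those called in each comparison, those called in opposite directions, HIF1A, EPAS1, ARNT, VHL, EGLN1, EGLN2, HIF1AN, MYCN and MYC, and the genes most like each member (mean rlog of at least 5) and like their mean. Neighbours were genes whose mean rlog reached 8 and which lay within 10 Mb. Alternatives were no variance trend, a filter on low levels, centred libraries, neighbours subtracted, a minimum difference, a replicate block and each library left out.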

Additional observations from a re-analysis of the deposited data

Results flagged for a closer look

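Of the other HIF targets, 4 were called in opposite directions against PAR, lower in the libraries labelled KD and higher in those labelled OE. The direct difference between OE and KD follows from the choice of these genes and is given for its size, not as further evidence. RAB20 was 0.689 higher in OE, with rlog values of 9.12, 9.11 and 9.17 in KD and 9.79, 9.82 and 9.86 in OE. PLIN2 was 0.576 higher, with 14.12, 14.13 and 14.13 in KD and 14.71, 14.70 and 14.70 in OE. LOXL2 was 0.316 higher, with 12.46, 12.49 and 12.50 in KD and 12.78, 12.78 and 12.83 in OE. AK4 was 0.274 higher, with 11.53, 11.52 and 11.51 in KD and 11.81, 11.79 and 11.78 in OE, while its call between KD and PAR was lost without KD replicate 3, PAR replicate 1 or PAR replicate 2 (adjusted p = 0.0627, 0.0533 and 0.135 from limma).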

How the results depend on the processing

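No called result turned its direction under any alternative. The calls above set no minimum difference, whereas the study also required a log2 fold change over 0.5. When a call also needed a difference over 0.5, limma called 1110, 200 and 793 genes in KD against PAR, OE against PAR and OE against KD, in place of 11980, 7764 and 10552. The other HIF targets called higher were then 8, 14 and 3 and those called lower 2, 0 and 2, fewer by construction on a shrunken scale. The totals over all genes hold both directions together. Leaving out each library in turn gave 11106 to 12030, 6857 to 7762 and 9636 to 10575 genes, with 30 to 32, 36 to 37 and 26 to 28 other HIF targets higher and 10 to 12, 6 and 6 to 9 lower. An alternative chosen after seeing the data kept only the 46 listed genes with under 10% of shared exonic bases. Of these 46, 27, 32 and 25 were higher and 11, 6 and 7 lower. The share of all genes under that limit was not computed, so nothing is read from these counts.

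Ranked among the 1000 genes nearest in level, the order in KD had PPFIA4 in place 1, CA9 2, VEGFA 6, DDIT4 7 and ANKRD37 8, and in OE PPFIA4 and BNIP3 shared place 1 with CA9, with DDIT4 in 6 and ADM in 7. With the neighbouring genes subtracted, NDRG1 took place 3 and BNIP3 4 in both orders and P4HA1 place 5 in KD. Without OE replicate 1 or PAR replicate 3, VEGFA and ANKRD37 exchanged places 8 and 9 in OE. The causes were not tested. Of 420 differences of members 405 moved by less than the spread between replicates, and of 960 values for other named genes 19 lost and 9 gained a call. Among these, EGLN1 in KD was called without PAR replicate 3 (adjusted p = 0.0443 from limma).

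With the replicate number as a block, a paired fit, limma called 12015, 7854 and 10623 genes and 32, 37 and 28 other HIF targets higher and 11, 6 and 8 lower. The numbers do not pair all the libraries, since deviations of libraries with the same number correlated at -0.12 to 0.268 (9 pairs, 9956 genes). Between KD and OE, libraries with the same number correlated at 0.218, 0.041 and 0.268, and those with different numbers at -0.262 to 0.0668. Same-number pairs that included PAR lay between -0.12 and 0.0213. Not every library correlated best with its own number, since OE replicate 2 was closer to KD replicate 1 (0.0668) than to KD replicate 2 (0.041). The block gained calls for HIF1A in OE (-0.13, adjusted p = 0.0404 from limma) and ANGPTL4 in KD (0.046, adjusted p = 0.0461 from limma) and changed no other call of a named gene. The rlog values carry no depth per library, so counting error at low levels was not computed.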
